A study of Mus musculus with 12 samples.

Results

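Small nucleolar RNAs and Cajal body RNAs were examined in the RNA of mouse bone marrow pro-B cells, the early B-cell precursors in which immunoglobulin genes are rearranged. The members were all transcript clusters of the array whose only gene symbol begins with Snord, Snora or Scarna, with the cluster of highest mean kept where a gene had more. They came to 54 genes of the 19938 that single-symbol clusters name: 31 box C/D RNAs (Snord), 20 box H/ACA RNAs (Snora) and 3 Cajal body RNAs (Scarna). Affymetrix Mouse Gene 1.0 ST arrays, which read each transcript with probes along its length, were used on 4 samples of each of 3 genotypes. The groups were Cd72+/-;Pax5+/- pro-B cells, which have lost 1 copy of each gene, Pax5+/- pro-B cells, and WT pro-B cells. Pax5 is a transcription factor that commits precursors to the B lineage, and Cd72 is a surface protein that dampens B-cell receptor signals. The titles name the cells of both mutants preleukemic precursor B-cells and only those of WT pro-B cells, while the tissue label reads pro-B for all, so the stage of the mutants' cells is only partly settled by the labels. An age of 1 month is given for all mice. They name neither the strain nor the sex, and do not say whether each array is a separate mouse, so the p-values below rest on the spread among these arrays, part or all of which may be technical.

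Box C/D and box H/ACA RNAs guide chemical changes of other RNAs. A box C/D RNA pairs with its target and directs the methylation of a ribose there by fibrillarin, while a box H/ACA RNA directs the conversion of a uridine to pseudouridine by dyskerin. Most act on ribosomal RNA in the nucleolus, a few are needed to cut the ribosomal RNA precursor, and the Cajal body RNAs act on the small nuclear RNAs of the spliceosome. In mammals nearly all are released from introns of host genes, many of which encode ribosomal proteins or translation factors or, like Gas5 and the Snhg genes, no protein.

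The boxes that name the classes can be seen in the stretches of members that also lie in an annotated microRNA hairpin, shown here because the RefSeq tables used here (build GRCm38.p6, both on the minus strand) hold the small RNA's own bases in them. The first line is the 5′ end of Snord33, 28 bases at chr7:45126918-45126945 shared with the hairpin of Mir5121, with its box C in capitals from position 6 of the RNA, read on the strand of the hairpin. The second is the 3′ end of Scarna13, 65 bases at chr12:105031077-105031141 shared with the hairpin of Mir3069, with the ACA box in capitals. The last 2 bases of the RNA lie outside the hairpin and are not shown.
Snord33: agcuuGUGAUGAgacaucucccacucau
Scarna13: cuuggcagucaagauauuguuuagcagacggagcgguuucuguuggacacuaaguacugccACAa
Box C was searched as GUGAUGA or AUGAUGA on the strand of the hairpin, which was taken as that of the RNA. Either spelling occurred in 1.59% of the 1005 hairpins in the table. The letters ACA stood 1 base before the 3′ end in 6.57% of them.

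The host genes of many small nucleolar RNAs start transcription at a run of pyrimidines. The windows below run from 20 bases before to 20 bases after the first RefSeq start of the host of members described below (GRCm38.p6), with the longest run of at least 5 C or T that touches the 5 bases either side of the start in capitals. They belong to the hosts of Snord49a and Snord49b (2410006H16Rik, chr11:62602857-62602896, plus strand), Snord22 (Snhg1, chr19:8723467-8723506, plus strand), Snord16a (Rpl4, chr9:64173367-64173406, plus strand), Snord61 (Rbmx, chrX:57393017-57393056, minus strand), Snora73a and Snora73b (Snhg3, chr4:132353667-132353706, minus strand) and Snora31 (Tpt1, chr14:75845236-75845275, plus strand).
2410006H16Rik: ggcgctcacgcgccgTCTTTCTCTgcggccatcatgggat
Snhg1: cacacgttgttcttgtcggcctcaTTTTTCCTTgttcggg
Rpl4: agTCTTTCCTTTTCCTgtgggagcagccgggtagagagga
Rbmx: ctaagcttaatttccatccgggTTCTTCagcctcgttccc
Snhg3: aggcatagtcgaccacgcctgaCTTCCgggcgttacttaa
Tpt1: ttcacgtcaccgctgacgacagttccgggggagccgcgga
Such a run was present in 18 of the 33 hosts with an entry (54.5%), against 31.5% of the first starts of 27025 genes. It was present in 5 of the 9 hosts of a box C/D RNA that fell in Cd72+/-;Pax5+/- cells against WT (55.6%). The share in the other hosts was near equal, at 13 of 24 (54.2%). A run farther from the first RefSeq start, as in the windows of Eef2 and Rps12, was not counted. The shares thus depend on where that start is placed, and a host such as Tpt1 may have a run at another start.

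Values are the log2 signals deposited by the authors, and a difference of 1 is 2-fold. All 23410 clusters with a gene symbol were fitted together with limma, and a call means a p under 0.05 after Benjamini-Hochberg adjustment over all of them. Array medians ran from 6.91 to 7.005. Several features of the whole series touch the results. The transcripts of the sex chromosomes set the Cd72+/-;Pax5+/- arrays apart from those of both other groups. The log2 difference of Cd72+/-;Pax5+/- from WT cells was 6.58 for Xist, the X-inactivation RNA, and -4.18 for Eif2s3y of the Y chromosome. From Pax5+/- cells it was 6.625 and -4.19. Between Pax5+/- and WT cells 0 of 4 measured sex-linked transcripts were called. The Cd72+/-;Pax5+/- genotype thus cannot be told apart from sex. Cd72 averaged 7.51 in Cd72+/-;Pax5+/-, 10.19 in Pax5+/- and 8.90 in WT cells, and Pax5 averaged 11.21 in Cd72+/-;Pax5+/-, 10.97 in Pax5+/- and 11.57 in WT cells. Of the pro-B markers, 10 of 11 were measured, with an array mean of 11.31 to 11.51 in Cd72+/-;Pax5+/-, 11.56 to 11.69 in Pax5+/- and 10.95 to 11.93 in WT cells. The closest arrays were replicates 1 and 3, and 2 and 4, in both WT and Pax5+/- cells, and replicates 1 and 2, and 3 and 4, in Cd72+/-;Pax5+/- cells. Between the arrays of such a pair, the SD of the difference over all tested clusters was 0.117 and 0.125 in Cd72+/-;Pax5+/-, where other array pairs had 0.128 to 0.183. It was 0.122 and 0.178 in Pax5+/-, against 0.195 to 0.281 for other pairs, and 0.109 and 0.117 in WT cells, against 0.27 to 0.28. A wide gap thus stood only in WT. Whether a pair repeats 1 sample or shares a batch is not in the labels, so counts are also given with these pairs averaged. In RNA from a whole cell preparation, fewer cells of a type and less RNA per cell cannot be told apart.

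**Figure D1:**
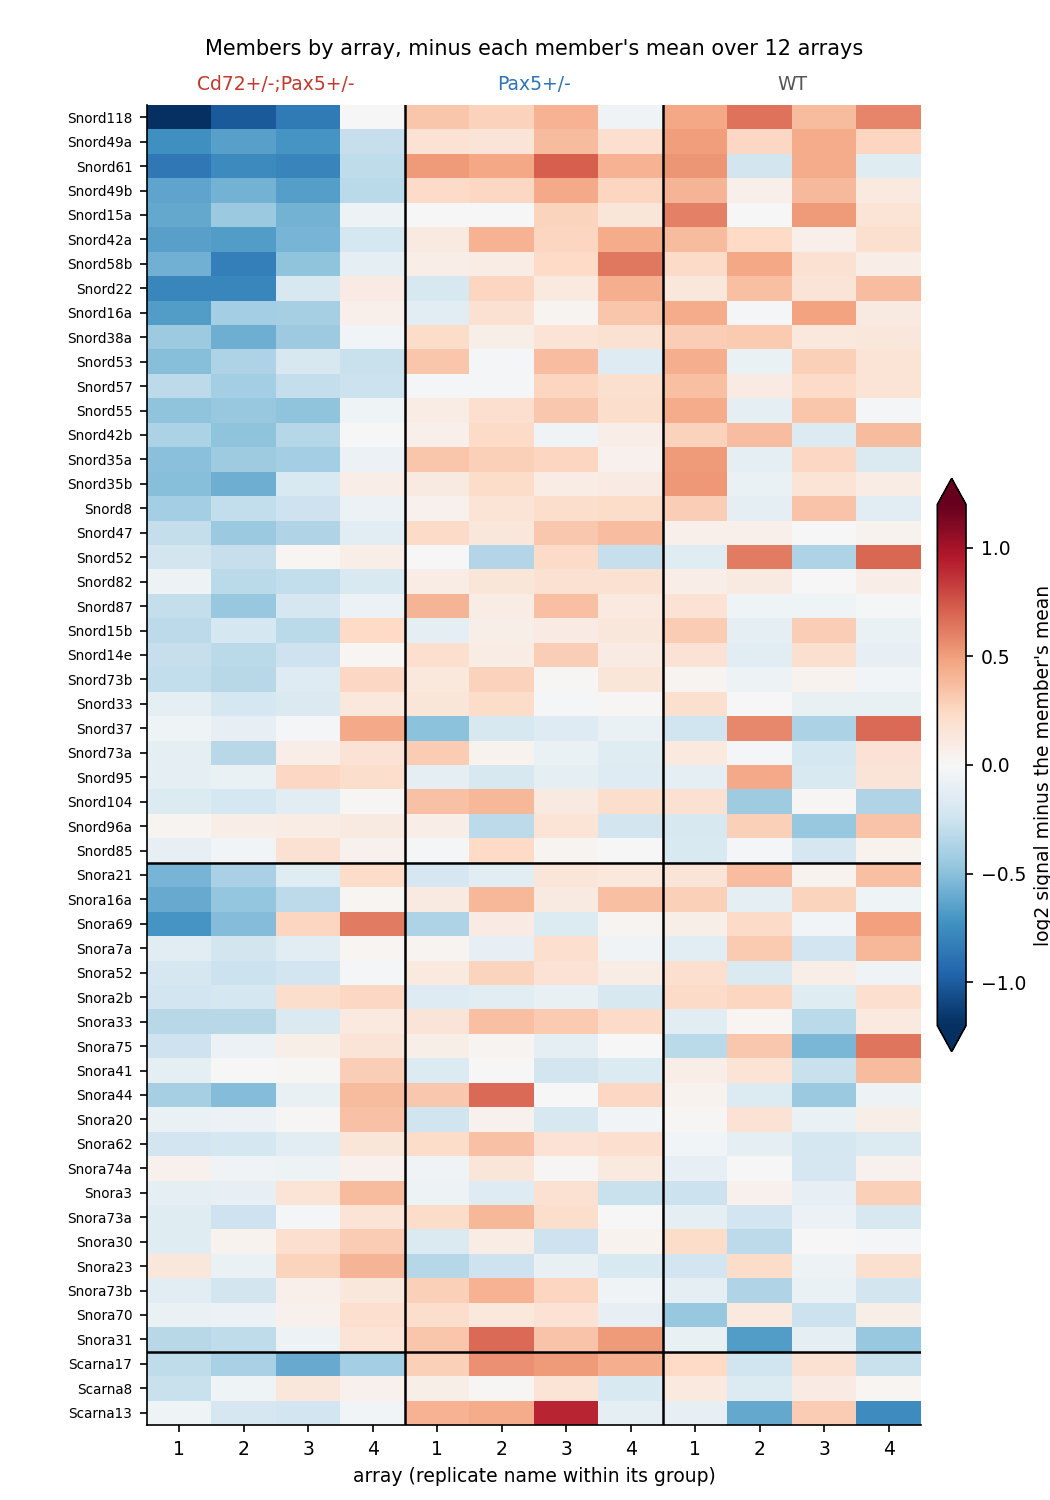
Log2 signal of each of the 54 members (lines, by class and then by the difference between Cd72+/-;Pax5+/- and WT) in each of the 12 arrays (columns), minus the member's mean over all arrays; blue is below that mean and red above it. The upper block of 31 box C/D RNAs is mostly blue in Cd72+/-;Pax5+/- replicates 1 to 3, and less so in replicate 4.

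Most box C/D members were lower in Cd72+/-;Pax5+/- pro-B cells than in WT cells. Of the 31, 16 were called lower (51.6%) and none higher, while 0 of 20 box H/ACA RNAs and 0 of 3 Cajal body RNAs were called (limma, adjusted p under 0.05). The background was 7.78% of all tested clusters, with 4.12% called higher and 3.66% called lower. The median log2 difference was -0.47 over the box C/D RNAs, with 28 below 0 and 3 above, against 0.00 over the box H/ACA RNAs and 0.00 over all tested clusters. The difference between the classes was described and not tested. At the study's own threshold, p under 0.05 before adjustment together with more than a 2-fold change, 1 of the 54 passed, Snord118, against a background of 0.914%. With the closest pairs averaged, 1 of the 54 was called, Snord49a (adjusted p = 0.0282), against a background of 1.24%.

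The fall was unequal among the Cd72+/-;Pax5+/- arrays. The mean deviation of the 31 box C/D RNAs from their own means was -0.41, -0.42, -0.29 and -0.01 in Cd72+/-;Pax5+/- replicates 1 to 4. It was 0.11, 0.12, 0.19 and 0.13 in Pax5+/- and 0.24, 0.11, 0.10 and 0.12 in WT replicates 1 to 4. All 4 Cd72+/-;Pax5+/- arrays thus lay below all 8 others, replicate 4 the least. Without replicate 4, 17 box C/D RNAs were called lower against WT, and their median difference was -0.55. In that setting 2 box H/ACA RNAs were also called lower, and 0 higher. Over all tested clusters the mean deviation of any array lay between -0.02 and 0.02.

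**Figure D2:**
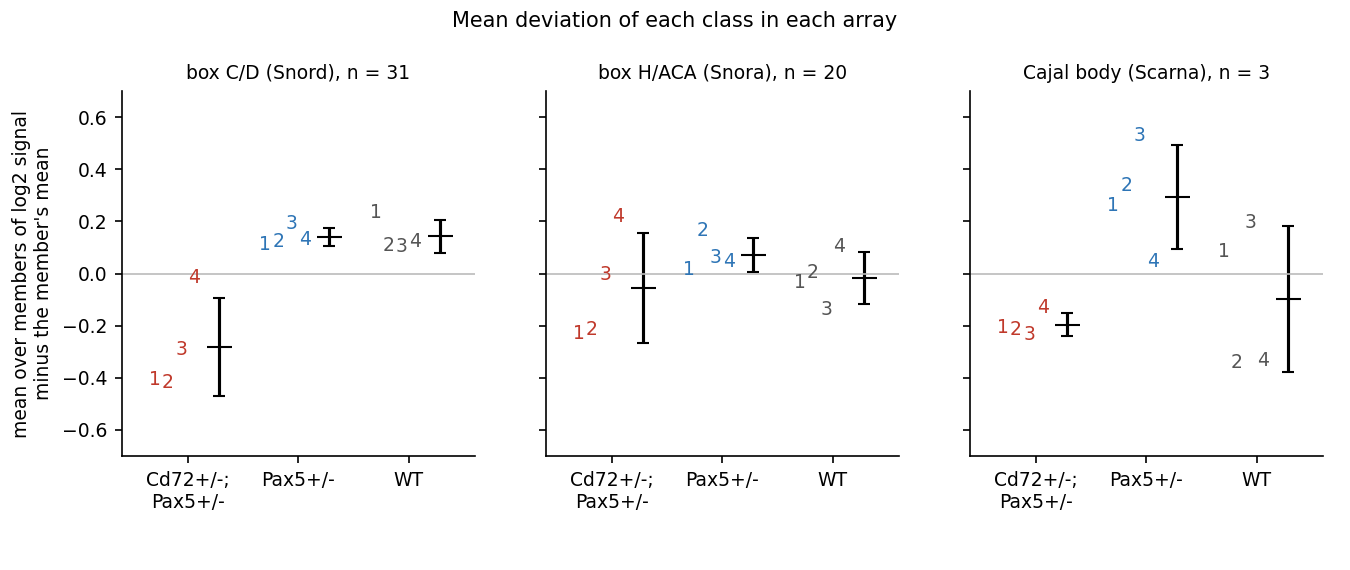
Mean over the members of a class of the log2 signal minus the member's mean (vertical axis) by group; each digit is 1 array, named by its replicate, and the bars are the group mean ± SD (n = 4 arrays). Cd72+/-;Pax5+/- replicates 1, 2 and 3 stand at -0.41, -0.42 and -0.29 for box C/D RNAs, apart from all others, while the box H/ACA values of the groups overlap.

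Snord118, the U8 RNA, is needed to process the ribosomal RNAs of the large subunit and has its own promoter. Its log2 signals were 6.89, 7.10, 7.26 and 8.11 in Cd72+/-;Pax5+/-, 8.44, 8.38, 8.52 and 8.06 in Pax5+/- and 8.57, 8.76, 8.49 and 8.69 in WT cells. Every Cd72+/-;Pax5+/- array lay below every WT array, and replicate 4 lay within the range of Pax5+/-. The fall against WT was 2.44-fold (log2 difference -1.29 ± 0.21 SE, adjusted p = 0.00157), the largest of the 54. Without Cd72+/-;Pax5+/- replicate 4 it was -1.54 on the log2 scale.

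Snord49a and Snord49b lie in the same host, the non-coding gene 2410006H16Rik on chromosome 11, and guide ribose methylation. Snord49a read 10.57, 10.66, 10.60 and 11.03 in Cd72+/-;Pax5+/-, 11.48, 11.46, 11.69 and 11.51 in Pax5+/- and 11.81, 11.56, 11.75 and 11.57 in WT cells. Snord49b read 12.10, 12.16, 12.07 and 12.41 in Cd72+/-;Pax5+/-, 12.96, 12.98, 13.18 and 12.99 in Pax5+/- and 13.14, 12.79, 13.12 and 12.85 in WT cells. For both RNAs the Cd72+/-;Pax5+/- arrays, replicate 4 included, lay below all 8 others. Snord49a was 1.94-fold lower than in WT (log2 difference -0.96 ± 0.10 SE, adjusted p = 4.68e-05) and Snord49b 1.73-fold lower (log2 difference -0.79 ± 0.10 SE, adjusted p = 0.000186).

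Snord61 lies in Rbmx, an RNA-binding protein gene on the X chromosome. It read 9.56, 9.65, 9.62 and 10.11 in Cd72+/-;Pax5+/-, 10.93, 10.88, 11.13 and 10.83 in Pax5+/- and 10.95, 10.20, 10.86 and 10.27 in WT cells. The Cd72+/-;Pax5+/- arrays lay below all others, and the WT arrays split by their closest pairs. Against WT it was 1.78-fold lower (adjusted p = 0.00915). Rbmx itself averaged 9.85 in Cd72+/-;Pax5+/-, 10.01 in Pax5+/- and 9.88 in WT cells and was not called in any comparison. With the members on the X chromosome left out, 15 of 16 calls against WT remained.

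Several called members come from genes of the ribosome or its assembly. Snord42a, in Rpl23a, read 10.00, 9.98, 10.09 and 10.44 in Cd72+/-;Pax5+/- and 11.03, 10.89, 10.71 and 10.84 in WT cells. Snord15a, in Rps3, read 9.64, 9.81, 9.69 and 10.19 in Cd72+/-;Pax5+/- and 10.86, 10.25, 10.77 and 10.42 in WT cells. Both fell against WT with no overlap of the arrays (log2 difference -0.74 each, adjusted p = 0.000814 and 0.00622). Snord58b, in Rpl17, fell by 0.74 on the log2 scale (adjusted p = 0.00954). Snord16a, in Rpl4, fell by 0.61 (adjusted p = 0.0311), with Cd72+/-;Pax5+/- replicate 4 at 11.78, inside the WT range of 11.71 to 12.20. Snord22, the U22 RNA needed to process the ribosomal RNA of the small subunit, fell by 0.67 with the adjusted p closest to the threshold (0.0491).

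Snord57, Snord47 and Snord82 fell less, with a small spread among the arrays. Snord57, hosted by the box C/D core protein gene Nop56, read 12.08 to 12.23 in Cd72+/-;Pax5+/-, 12.47 to 12.75 in Pax5+/- and 12.59 to 12.85 in WT cells (log2 difference against WT -0.53, adjusted p = 0.000609). Snord82, hosted by the nucleolin gene Ncl, read 12.59, 12.33, 12.35 and 12.47 in Cd72+/-;Pax5+/- and 12.73, 12.76, 12.64 and 12.73 in WT cells (log2 difference -0.28, adjusted p = 0.0106). Snord47, hosted by Gas5, fell by 0.34 on the log2 scale (adjusted p = 0.00834). In none of the 3 did a Cd72+/-;Pax5+/- array reach a WT array. Snord38a, Snord53, Snord55 and Snord42b were the other called members, with log2 differences of -0.59, -0.54, -0.53 and -0.52 (adjusted p = 0.0021, 0.0258, 0.0237 and 0.0262).

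The 15 box C/D RNAs that were not called against WT had differences from -0.47 (Snord35a and Snord35b) to 0.11 (Snord85, the only member below the median of every array). Snord104, on chromosome 11, read 12.35, 12.30, 12.39 and 12.53 in Cd72+/-;Pax5+/-, 12.86, 12.91, 12.62 and 12.72 in Pax5+/- and 12.70, 12.09, 12.53 and 12.15 in WT cells, and no difference of it was called. RNAs of the same host did not always share a call. Snord15a was called and Snord15b, also in Rps3, was not (log2 difference -0.25, adjusted p = 0.337). The related Snord73a and Snord73b in Rps3a1 had differences of -0.06 and -0.13, and Snord95 and Snord96a in Rack1 of -0.01 and 0.09.

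**Figure D3:**
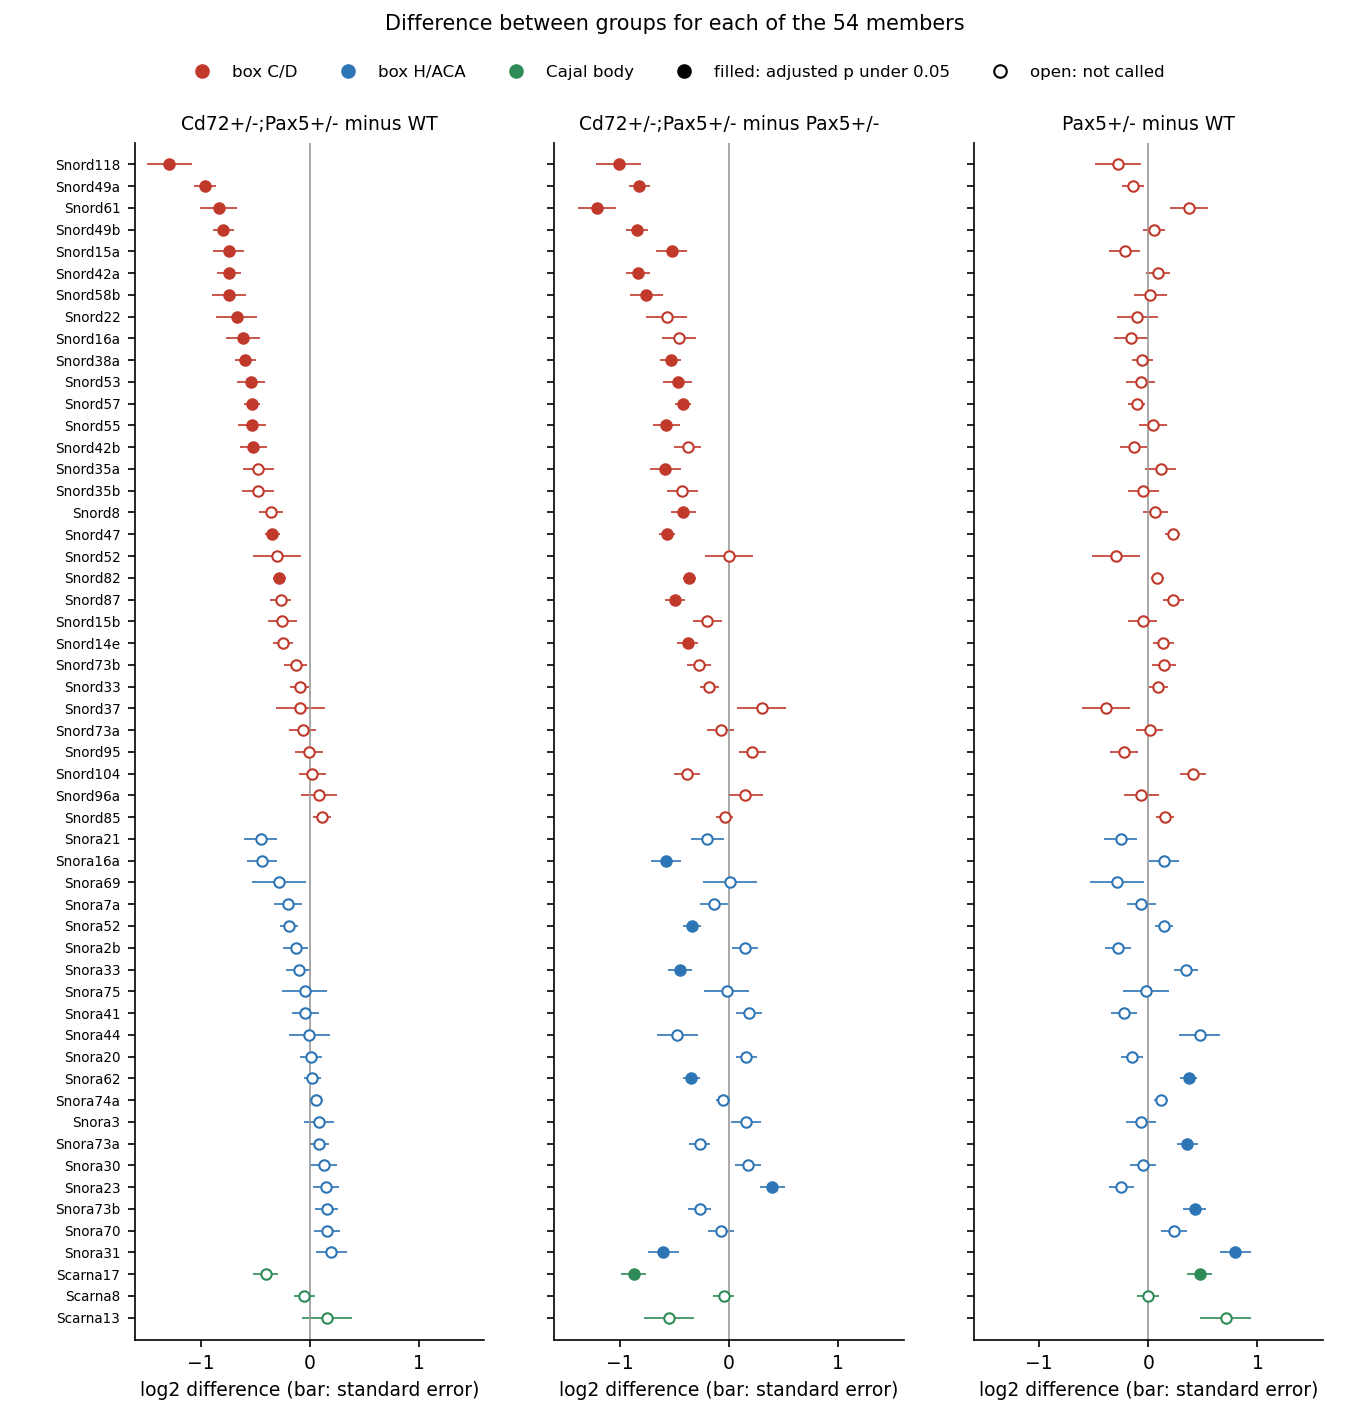
Log2 difference (horizontal axis, bars: standard error of the limma fit) of each of the 54 members for Cd72+/-;Pax5+/- minus WT, Cd72+/-;Pax5+/- minus Pax5+/- and Pax5+/- minus WT; filled points were called at an adjusted p under 0.05. The box C/D RNAs lie mostly left of 0 in the comparisons that hold Cd72+/-;Pax5+/- (16 and 17 called lower) and on both sides of it in the third (0 called).

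Against Pax5+/- cells, the Cd72+/-;Pax5+/- cells had lower signals of RNAs of all 3 classes. Of the 54 members, 23 were called lower and 1 higher, against a background of 9.79% called, 4.44% higher and 5.35% lower. The 23 were 17 of 31 box C/D RNAs, 5 of 20 box H/ACA RNAs and Scarna17. The median log2 differences were -0.43 for box C/D, -0.11 for box H/ACA and 0.01 for all tested clusters. This comparison shares the Cd72+/-;Pax5+/- arrays with the one against WT, so its calls are not independent of those above. At the study's threshold 2 members passed, Snord61 and Snord118, against a background of 1.2%. With the closest pairs averaged 3 members were called, Snord47, Snord49a and Snord49b, against a background of 1.79%. Without Cd72+/-;Pax5+/- replicate 1, or without its replicate 2, the called members came to 14 each instead of 24, and without Pax5+/- replicate 3 or Cd72+/-;Pax5+/- replicate 3 to 16 each.

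Snord61 differed most between these genotypes, by -1.21 on the log2 scale (2.31-fold lower, adjusted p = 0.000489). Snord118 followed with -1.01 (adjusted p = 0.00721), although replicate 4 of Cd72+/-;Pax5+/-, at 8.11, overlapped the lowest Pax5+/- array, at 8.06. Snord49b, Snord42a and Snord49a differed by -0.84, -0.83 and -0.82, with adjusted p from 8.1e-05 to 0.000247 and no overlap. Snord35a, Snord8, Snord87 and Snord14e were called here and not against WT, with log2 differences of -0.59, -0.42, -0.50 and -0.38. Whether their difference against Pax5+/- exceeds that against WT was tested only as Pax5+/- minus WT, in which none of the 4 was called (log2 differences 0.11, 0.07, 0.23 and 0.14). Snord35a belongs, with Snord33, to the Rpl13a introns, and Snord33 differed by -0.18 (adjusted p = 0.246).

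**Figure D4:**
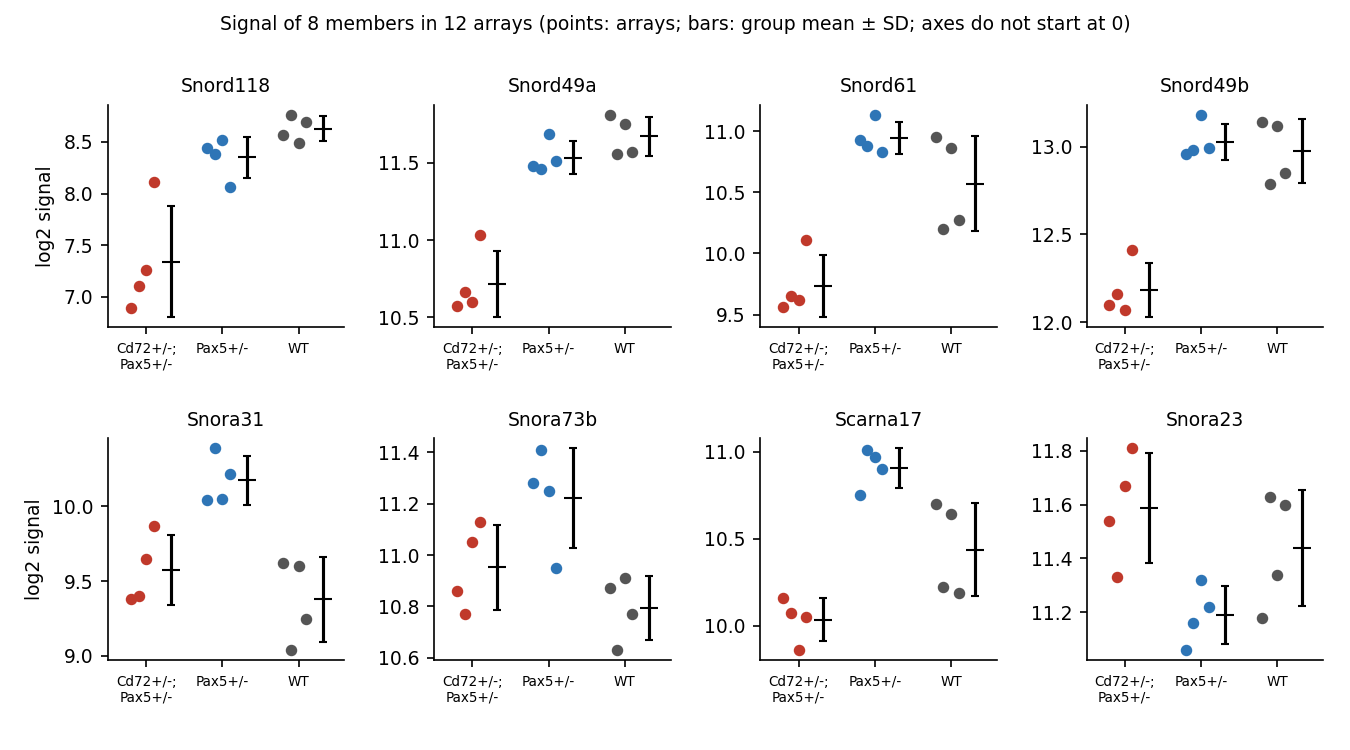
Log2 signal of 8 members in the 12 arrays (points), with the group mean ± SD (n = 4 arrays). The 4 box C/D RNAs of the upper row are low in Cd72+/-;Pax5+/-, while Snora31, Snora73b and Scarna17 are highest in Pax5+/- and Snora23 is lowest there.

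In Pax5+/- cells 0 of the 31 box C/D members were called against WT, and the members that were called were higher. They were 4 of 20 box H/ACA RNAs (Snora31, Snora62, Snora73a and Snora73b) and 1 of 3 Cajal body RNAs (Scarna17), or 5 of 54 members, against a background of 7.47% called, 4.28% higher and 3.2% lower. The share of all members, 9.26%, was thus near the background. The median log2 difference was 0.01 for box C/D RNAs, 0.05 for box H/ACA RNAs and -0.01 for all tested clusters. No member passed the study's threshold, against a background of 0.957%, and with the closest pairs averaged none was called, against a background of 1.2%. Without Pax5+/- replicate 1, 3 members were called, and without Pax5+/- replicate 2 or 3, or WT replicate 2 or 4, 2 members each. Without replicates 1 and 3 of both groups, 15 members were called, 8 higher and 7 lower, against a background of 22.9%. Of the lower members 4 were box C/D RNAs.

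Snora31, in the intron of the translationally controlled tumour protein gene Tpt1, had the largest rise. It read 10.04, 10.39, 10.05 and 10.22 in Pax5+/- and 9.62, 9.04, 9.60 and 9.25 in WT cells. All 4 Pax5+/- arrays lay above the WT arrays, and WT replicates 1 and 3 lay above 2 and 4. The rise was 1.74-fold (log2 difference 0.80 ± 0.14 SE, adjusted p = 0.00357). In Cd72+/-;Pax5+/- cells Snora31 read 9.38, 9.40, 9.65 and 9.87, which was 0.60 lower than in Pax5+/- cells (adjusted p = 0.0188) and not called against WT.

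Snora73a and Snora73b, near-identical copies of the U17 RNA in the non-coding host Snhg3, take part in processing the ribosomal RNA of the small subunit. Snora73a read 11.10, 11.27, 11.09 and 10.88 in Pax5+/- and 10.77, 10.65, 10.81 and 10.68 in WT cells. Snora73b read 11.28, 11.41, 11.25 and 10.95 in Pax5+/- and 10.87, 10.63, 10.91 and 10.77 in WT cells. Neither overlapped between the groups (log2 differences 0.36 and 0.43, adjusted p = 0.0356 and 0.0253), and their probes may share signal because the copies are alike. Snora62, in the ribosomal protein gene Rpsa, read 9.45, 9.58, 9.40 and 9.43 in Pax5+/- and 9.19, 9.11, 9.02 and 9.06 in WT cells (log2 difference 0.37, adjusted p = 0.0103).

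Between Cd72+/-;Pax5+/- and Pax5+/- cells, Snora16a, Snora31, Snora33, Snora52 and Snora62 were lower, by 0.34 to 0.60 on the log2 scale. Snora16a, in Snhg12, read 10.88, 11.02, 11.17 and 11.51 in Cd72+/-;Pax5+/- and 11.59, 11.88, 11.59 and 11.84 in Pax5+/- cells. Snora44 of the same host had a difference of -0.47 that was not called (adjusted p = 0.154). Snora23, in the nuclear import gene Ipo7, was the 1 member called higher: it read 11.54, 11.33, 11.67 and 11.81 in Cd72+/-;Pax5+/- and 11.06, 11.16, 11.32 and 11.22 in Pax5+/- cells (log2 difference 0.40, adjusted p = 0.049). The arrays of the groups did not overlap for it. The array means of the box H/ACA class differed within Cd72+/-;Pax5+/- too, at -0.23, -0.21, 0.00 and 0.22 in replicates 1 to 4. Those of Pax5+/- were 0.02, 0.17, 0.06 and 0.05, and those of WT -0.03, 0.01, -0.14 and 0.10.

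Of the 3 Cajal body RNAs, Scarna17 was called in 2 comparisons and the other two in none. Differences among the 3 were not tested. Scarna17, on chromosome 18, read 10.16, 10.07, 9.86 and 10.05 in Cd72+/-;Pax5+/-, 10.75, 11.01, 10.97 and 10.90 in Pax5+/- and 10.70, 10.22, 10.64 and 10.19 in WT cells. No group overlapped another: it rose in Pax5+/- against WT (log2 difference 0.47, adjusted p = 0.0266) and was lower in Cd72+/-;Pax5+/- than in Pax5+/- cells (log2 difference -0.87, adjusted p = 0.00029), and its difference of -0.40 against WT was not called (adjusted p = 0.056). Scarna13, the U93 RNA, read 10.44 to 10.64 in Cd72+/-;Pax5+/-, 10.56 to 11.59 in Pax5+/- and 9.92 to 10.98 in WT cells, with the ranges of Pax5+/- and WT overlapping (log2 difference 0.71, adjusted p = 0.0962). Scarna8, the U92 RNA, read 7.92 to 8.32 in Cd72+/-;Pax5+/-, 8.00 to 8.35 in Pax5+/- and 8.02 to 8.30 in WT cells, and no difference of it was called.

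No cluster measured for the host of a box C/D RNA that fell against WT was itself called in that comparison. A gene whose RefSeq span contains the member was found for 53 of the 54, all but Snord118. Of these hosts 26 were measured, giving 30 member and host pairs. The clusters were matched by gene and not by position. Cluster numbers mostly follow the chromosome. Those of Hspa8, Rpl10, Rpl23, Rpl23a, Rpl27a, Rps12, Rps3a1, Rpsa and Tpt1 are far from the numbers of their members. These clusters may thus read a copy of the gene elsewhere, and whether the host's own transcript was measured was not checked. The 9 called box C/D RNAs with a measured host, against WT, had hosts of which 0 were called: Rps3 (log2 difference 0.15), Rpl4 (0.11), Rpl23a (0.09), Nop56 (0.06), Rbmx (-0.03), Ncl (-0.05), Wdr43 (-0.09) and Gas5 (-0.18), with Rpl23a the host of both Snord42a and Snord42b. Gas5 came closest to a call (adjusted p = 0.0644). Its Cd72+/-;Pax5+/- arrays, at 13.18 to 13.31, all lay below its WT arrays, at 13.33 to 13.47. In 15 of the 16 box C/D pairs the small RNA's difference was below that of its host. The same held in 10 of the 13 box H/ACA pairs, where the median difference was 0.01 for the small RNAs and 0.20 for the hosts. As a description across the 16 pairs, Pearson's r of the log2 differences was -0.34 and Spearman's rho -0.25; the pairs share their arrays, and some share a host. Among these hosts, Mcmdc2 of Snord87 averaged 4.69 in Cd72+/-;Pax5+/- and 4.58 in WT cells, below every array median. Snord87 also lies in the span of the non-coding gene Snhg6, which was not measured, so its pair may not be with its true host. Without the pair of Snord87 and Mcmdc2, an alternative chosen after seeing the data, the small RNA was below its host in 14 of 15 pairs. There r was -0.40 and rho -0.33. The median over all 26 hosts was 0.07, with 1 called, Rplp2, which was higher in Cd72+/-;Pax5+/- than in WT cells by 0.50 (adjusted p = 0.00677), while its Snora52 differed by -0.19 (adjusted p = 0.207).

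Between Cd72+/-;Pax5+/- and Pax5+/- cells 2 hosts were called. Gas5 averaged 13.25 in Cd72+/-;Pax5+/- and 13.45 in Pax5+/- cells (log2 difference -0.21, adjusted p = 0.0244), and its Snord47 differed by -0.57. Rplp2 was higher by 0.35 (adjusted p = 0.0438), while its Snora52 was lower by 0.34. In Pax5+/- cells against WT, Haus6, host of Scarna8, was the 1 host called (log2 difference -0.23, adjusted p = 0.0461), and the hosts Tpt1 and Rpsa of the called Snora31 and Snora62 had differences of 0.15 and 0.10 that were not. Ribosomal protein genes have near-identical pseudogene copies, so their clusters may hold signal of those. The clusters of Tpt1 and Rpsa are among those that may read a copy elsewhere. A cluster within an intron cannot separate the finished small RNA from unspliced host RNA.

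**Figure D5:**
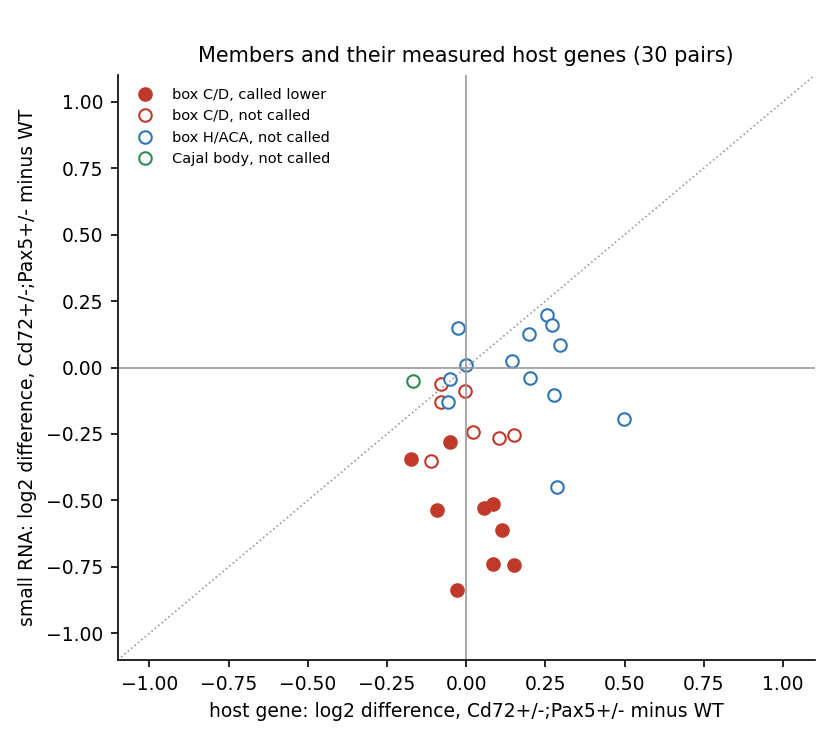
Log2 difference, Cd72+/-;Pax5+/- minus WT, of the small RNA (vertical axis) and of the cluster matched to its host gene (horizontal axis) for 30 pairs. Filled points are called members and the dotted line marks equal differences. The called box C/D RNAs lie below the line, Snord47 and Snord82 closer to it than the others, with hosts between -0.18 and 0.15.

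The proteins that bind these RNAs showed few calls. The box C/D core (Fbl, the methyltransferase, and Nop56, Nop58 and Snu13) had 0 of 4 genes called in each comparison, with median log2 differences of -0.01 against WT and 0.26 against Pax5+/- in Cd72+/-;Pax5+/- cells. The box H/ACA core (Dkc1, the pseudouridine synthase, and Gar1, Nhp2 and Nop10) also had 0 of 4 called in each. Of 15 genes listed under assembly of the particles and Cajal bodies, Nop53 and Pih1d1 were called higher in Cd72+/-;Pax5+/- than in WT cells. Their log2 differences were 0.46 and 0.25 (limma, adjusted p = 0.00959 and 0.0397). Whether Nop53 has a part in that assembly was not checked. Rpap3, a partner of Pih1d1 in an assembly complex, was called lower in Pax5+/- than in WT cells (log2 difference -0.36, adjusted p = 0.0273). Of 12 genes for trimming and decay, 1 was called, Tent4b, a polymerase that adds tails to RNAs for trimming (log2 difference 0.36 in Cd72+/-;Pax5+/- against Pax5+/-, adjusted p = 0.0473). Of 8 genes for ribosomal RNA enzymes and transcription, 1 was called in the same comparison, Polr1b of RNA polymerase I (log2 difference 0.95, adjusted p = 0.0483). Of 6 host genes with no protein that had a cluster of their own, 0 were called against WT, and Gas5 and Snhg15 were lower against Pax5+/-.

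Other short non-coding RNAs moved in part alongside. Of 13 such genes whose symbols lie outside the 3 classes, 5 were called higher in Pax5+/- than in WT cells. That is 38.5%, against 7.47% of all tested clusters called. The largest difference was that of Rnu3a (log2 difference 0.90, adjusted p = 0.00121). Rnu3a is the box C/D RNA U3 that starts the cutting of the ribosomal RNA precursor, and only its symbol kept it out of the members. Terc, the telomerase RNA, which carries a box H/ACA domain, was higher by 0.49 (adjusted p = 0.0163), and Rpph1, Rprl1 and Rprl2 by 0.31 to 0.38. In Cd72+/-;Pax5+/- against WT, Rprl1 and Rprl2 were called lower (15.4% of the 13, against 7.78% of all; log2 differences -0.36 and -0.44), and Rnu3a was not called (0.29, adjusted p = 0.285). Against Pax5+/- cells 5 of the 13 were lower (38.5%, against 9.79% of all), among them Rnu12 of the minor spliceosome (log2 difference -0.63, adjusted p = 0.00124), Rnu3a (-0.61) and Terc (-0.44). Of 296 microRNA genes, 12 were called against WT in Cd72+/-;Pax5+/- cells, all higher. That is 4.05% of them, near the 4.12% of all tested clusters called higher.

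Clusters that name such an RNA beside another gene were kept out of the members and are given as they stand, since their signal cannot be assigned to 1 gene. Outside the Snord116 family there were 17, of which 6 were called lower in Cd72+/-;Pax5+/- than in WT cells, 0 higher and 11 not at all. The background was 7.78% of all tested clusters called, with 3.66% lower. These 17 clusters hold 15 distinct sets of values. The cluster of Snora24 and its host Snhg8 averaged 10.11 in Cd72+/-;Pax5+/- and 11.06 in WT cells (log2 difference -0.95, adjusted p = 0.000692). The cluster of Snord68 and Rpl13 was lower by 0.85 (adjusted p = 0.00339), that of Snord32a and Rpl13a by 0.30 (adjusted p = 0.0134), that of Snord14a and Rps13 by 0.38 (adjusted p = 0.0283), and those of Snord14c, Snord14d and Hspa8 by 0.47 and 0.48. The clusters of Snord14c, Snord14d and Hspa8 read nearly the same in every array, so their calls are not separate results. The 11 clusters not called had differences from -0.29 to 0.10, the highest that of Rpl12 and Snora65. The 24 clusters of the repeated Snord116 family, imprinted RNAs known from brain, averaged 4.78 to 5.02 in Cd72+/-;Pax5+/- and 4.48 to 4.75 in WT cells, below every array median, with log2 differences of 0.18 to 0.36, and 1 was called higher (adjusted p = 0.0412). They hold 7 distinct sets of values, so most repeat one another. Of the 6 genes with more than 1 cluster, the second cluster of Snord118 had the same values, and that of Snord58b a difference of -0.74 against WT.

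Marker genes of other cell types and features of the members were set beside these results. The mean of 8 stromal and endothelial markers was 7.21 to 7.49 in Cd72+/-;Pax5+/-, 7.65 to 8.60 in Pax5+/- and 7.82 to 8.53 in WT arrays, with Sparc and Cxcl12 called lower against WT (log2 differences -1.97 and -1.92, adjusted p = 0.0408 and 0.0141). Among the other markers, the collagen genes Col1a1 and Col1a2 read 8.45 to 8.78 and 7.81 to 8.21 in Cd72+/-;Pax5+/- arrays, against 9.32 to 10.41 and 8.89 to 10.07 in WT arrays, without being called (adjusted p = 0.0992 and 0.0631). The endothelial markers Kdr, Cdh5, Emcn and Pecam1 were not called, with adjusted p from 0.6 to 0.934. The defining markers of erythroid cells (2 of 5 measured, means of 5.72 to 5.85 in Cd72+/-;Pax5+/- and 5.75 to 5.92 in WT arrays) and of megakaryocytes (4 of 4 measured, means of 5.54 to 5.64 in Cd72+/-;Pax5+/- and 5.45 to 5.57 in WT arrays) lay below the array medians in both groups. No granulocyte or monocyte marker was called (8 of 9 measured, means of 6.52 to 6.55 in Cd72+/-;Pax5+/-, 6.40 to 6.47 in Pax5+/- and 6.37 to 6.61 in WT arrays). The 4 plasma cell markers averaged 8.48 to 8.55 in Cd72+/-;Pax5+/-, 8.42 to 8.87 in Pax5+/- and 8.57 to 8.85 in WT arrays. The 6 T and NK cell markers averaged 6.01 to 6.13 in Cd72+/-;Pax5+/-, 6.18 to 6.30 in Pax5+/- and 6.10 to 6.19 in WT arrays. None of these 10 genes was called in Cd72+/-;Pax5+/- against WT. In Pax5+/- against WT, Sdc1 and Nkg7 were higher (log2 differences 0.64 and 0.54) and Xbp1 and Mzb1 lower (-1.06 and -0.50). In Cd72+/-;Pax5+/- against Pax5+/-, Sdc1, Jchain and Nkg7 were lower (-0.77, -0.77 and -0.69) and Mzb1 higher (0.48). Of the 10 measured pro-B markers, 1 was called lower, 1 higher and 8 not at all in Cd72+/-;Pax5+/- against WT. Their median log2 difference was 0.24. Dntt, the enzyme that adds bases at immunoglobulin joints, was lower by 2.34 on the log2 scale (adjusted p = 0.00515). It read 8.29 to 8.85 in Cd72+/-;Pax5+/- arrays and 11.93, 9.76, 11.92 and 9.82 in WT replicates 1 to 4. Ebf1 was higher by 0.25 (adjusted p = 0.0326). Box C/D members are short, with a median of 68 bases against 125 for box H/ACA members. Across the 54 members the log2 difference against WT and length had a Spearman's rho of 0.40, and within the 31 box C/D members of 0.07, a description over members that share their arrays. With the mean signal of the member, rho was -0.28 over the 54 and -0.20 over the 31 against WT, and -0.52 and -0.39 against Pax5+/-. The part of the marker levels, of RNA length and of signal in the results was not tested.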

How the data were processed

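Total RNA was isolated with TRIzol and cleaned on RNeasy Mini columns with DNase, then fragmented and labelled with biotin, per the labels' protocols. The members are short, with a median of 68 bases for box C/D and 125 for box H/ACA RNAs. How well the columns kept RNAs of such lengths, and whether equally in each array, was not tested. The deposited log2 values, 1 per transcript cluster and array, were made by the authors with Transcriptome Analysis Console 4.0.3, per the series' design text; which normalization, genome build and annotation it ran with is not given in the sources used. Symbols came from the platform annotation, under which 21789 clusters have 1 symbol, 1621 several and 5534 none; chromosomes, lengths and hosts came from RefSeq (GRCm38.p6), whose table gives no strand, so a host is a gene whose span contains the member.

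limma 3.58.1 in R 4.3.3 was fitted to all 12 arrays and 23410 clusters with a mean per group, with Benjamini-Hochberg adjustment in each of the 3 comparisons; the code was tested on simulated data. An exact two-sided permutation test of 4 against 4 arrays cannot go below p = 0.0286, which every member without overlap had. The number of arrays limits the precision. The labels give no pairing between groups; the closest arrays of WT and of Pax5+/- carry the same replicate numbers here, and whether they are repeats or a shared batch is not in the labels. The members and lists were chosen with earlier results of these data known. Members named were the 10 largest called rises and falls per comparison, all Scarna members, the 3 of highest mean among Snord and Snora, their hosts, and per list up to 4 called genes and 2 others by value; others named were chosen after their values were seen. Alternatives covered normalization, filters, the tested clusters, the fit, the threshold, array weights, pairs and single arrays.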

Additional observations from a re-analysis of the deposited data

Results flagged for a closer look

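Dixon's test for a value apart from the other 3 of its group was applied to 78 groups of 4 arrays, and 3 were marked (3.85%), where chance marks about 5%. Snord49b read 13.18 in Pax5+/- replicate 3, against 12.96 to 12.99 in the other Pax5+/- arrays. Snord61 read 10.11 in Cd72+/-;Pax5+/- replicate 4, against 9.56 to 9.65 in the others. The mean deviation of the box C/D RNAs was 0.235 in WT replicate 1, against 0.104 to 0.124 in the other WT arrays.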

How the results depend on the processing

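Across 28 alternatives, none of the 32 called differences of named members changed sign, but calls were lost: Snord22 kept its call against WT in 12 of the 28, Snora73a, Snora73b and Scarna17 theirs in Pax5+/- against WT in 13, 17 and 18, and Snora23 its call against Pax5+/- in 14, and with the closest pairs as a random block 13 of the 32 were lost. The count of called members in Pax5+/- against WT, 5, became 3 with only the compared groups fitted and 9 at an adjusted p under 0.1. It became 0 at the study's threshold, 0 with the closest pairs averaged and 1 with those pairs as a random block. Without replicates 1 and 3 of WT and Pax5+/- it became 15, with 8 higher and 7 lower, and 4 box C/D RNAs among the lower. In that setting 22.9% of all tested clusters were called. It became 2 without their replicates 2 and 4 (7.42% of all called), and 2 to 7 with single arrays left out. In Cd72+/-;Pax5+/- against WT, 16 became 1 at the study's threshold, 1 with pairs averaged and 8 with pairs as a random block, both for all members and for box C/D members called lower, and lay between 11 and 19 with single arrays left out. In Cd72+/-;Pax5+/- against Pax5+/-, 24 became 2, 3 and 15 under the same settings and 14 to 29 with single arrays left out, and the 17 box C/D members called lower became 2 and 3 under the first 2. Averaging leaves 2 values per group, so fewer calls follow by construction; for the others the cause was not tested. The medians over the 54 members in the 3 comparisons, and over the box C/D members in both Cd72+/-;Pax5+/- comparisons, moved by less than the spread between arrays. The 0 box H/ACA members called in Cd72+/-;Pax5+/- against WT also depended on the setting. With array weights, and at an adjusted p under 0.1, 2 were called lower and 0 higher, against 11.9% and 11.1% of all tested clusters called. Without replicates 1 and 3 of WT and Pax5+/-, 3 were lower and 1 higher, against 18.9% of all. Without their replicates 2 and 4, the counts were 2 lower and 2 higher, against 20.4% of all. No paired analysis was possible because the sample titles share no replicate number between groups.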

Other observations

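Some members that no comparison called divided the WT arrays by their closest pairs; they were chosen after their values were seen. Snord52 read 6.21 and 5.99 in WT replicates 1 and 3, against 6.98 and 7.05 in replicates 2 and 4. Snord37, in the elongation factor gene Eef2, read 6.15 and 6.01 in replicates 1 and 3, against 6.97 and 7.07 in replicates 2 and 4. Snora75, in Ncl, read 8.90 and 8.68 against 9.55 and 9.87 in the same arrays, while Scarna13 ran the other way, with 10.57 and 10.98 in replicates 1 and 3 and 10.06 and 9.92 in replicates 2 and 4. In the Pax5+/- arrays, Snord52 read 6.36 and 6.59 in replicates 1 and 3 and 6.01 and 6.08 in replicates 2 and 4, the opposite order to WT. Snora69, on the X chromosome in Rpl39, spread most within Cd72+/-;Pax5+/-, at 7.74, 7.93, 8.71 and 9.07 in replicates 1 to 4.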
